A study of Mus musculus with 10 samples.

Results

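The mitochondrial carriers of the SLC25 family were compared in the livers of lactating mice that had eaten a diet of high (HGI) or low (LGI) glycaemic index. The carriers were taken as all genes whose symbol starts with Slc25a and that have a probe set assigned to them alone, without Slc25a1, Slc25a15, Slc25a20 and Slc25a37. Arrays read a transcript through sets of short probes, and each gene was taken at the probe set with the highest mean over the 10 arrays. This gave 40 carriers among 18193 genes with a named probe set. Ucp2 was also to be taken, but no probe set was assigned to it alone and it is not analysed here. All mice were of the QSi5 strain and were fed their diet from pregnancy to peak lactation, when liver RNA was taken, with 5 mice and 5 arrays per diet. Glucose made up 51.4% of the HGI food, whose gross energy was 15.6 MJ/kg. The LGI food had high-amylose starch at the same 51.4% and a gross energy of 16.3 MJ/kg. The labels give a positive energy balance for every HGI mouse and a negative one for every LGI mouse, so diet and energy balance cannot be told apart.

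The inner mitochondrial membrane lets few charged molecules pass, and SLC25 carriers move them across it, most often by exchanging 1 molecule for another. They export ATP, import phosphate and ADP, and link cytosolic and mitochondrial pools of malate, aspartate, glutamate, amino acids and coenzymes. In the liver they feed the urea cycle, gluconeogenesis, fatty acid synthesis and haem synthesis, pathways whose steps lie on both sides of that membrane. Slc25a17 is an exception in place, since it serves the peroxisome, and Slc25a46 lies in the outer mitochondrial membrane.

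No carrier passed the test between the diets. Of the 40 carriers, 0 rose and 0 fell at an adjusted p under 0.05 (limma, Benjamini-Hochberg over all 45037 probe sets tested), where 29 probe sets passed, 0.0644% of all tested (17 or 0.0377% higher and 12 or 0.0266% lower in HGI). With the arrays centred on their medians 17 passed, 4 of them lower. The smallest adjusted p over all 87 probe sets of the carriers was 0.211, for Slc25a10. At an unadjusted p under 0.05 there were 6 carriers, 1 higher and 5 lower in HGI, which is 15% of 40 (2.5% higher and 12.5% lower), against 9.3% of genes at 1 probe set each (3.07% higher and 6.23% lower). The 5 lower ones were Slc25a10, Slc25a48, Slc25a17, Slc25a38 and Slc25a34, and the higher one was Slc25a30. The 6 became 3 of 40 without array HGI 1 and 3 of 40 without LGI 2. Of all probe sets, 8.81% and 6.4% had an unadjusted p under 0.05 in those fits, and 7.54% with all 10 arrays. With only probe sets of a mean log2 of at least 6 tested in limma, 3 of 24 carriers were under 0.05, against 11% of probe sets.

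The differences were small and were bounded by the spread between mice. Each difference given is the log2 mean of HGI less that of LGI. The median over the carriers was -0.06, against -0.03 over all genes, and 24 of 40 (60%) lay below 0, against 58.2% of genes. For the 24 carriers whose mean log2 reached 6 the median was -0.028, with 58.3% below 0. Over all genes that bright it was -0.044, with 62.1% below 0. The median over all 40 carriers was -0.03 without HGI 1. A difference of over 0.5 in size was seen at 3 carriers, Slc25a10, Slc25a30 and Slc25a25 (7.5%), against 1.76% of genes. For 32 carriers the 95% confidence interval of the difference stayed within 0.5 on either side of 0, and for 38 it stayed within 1, that is, within a 2-fold change. The intervals of Slc25a30 and Slc25a25 reached further. A total of 7 carriers (Slc25a2, Slc25a18, Slc25a24, Slc25a31, Slc25a35, Slc25a41 and Slc25a54) had both group means below the median signal of every array, where little or no transcript can be read. All 7 are among the 32 and the 38 counted above, and at such levels a narrow interval does not bound a change in transcript.

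**Figure D1:**
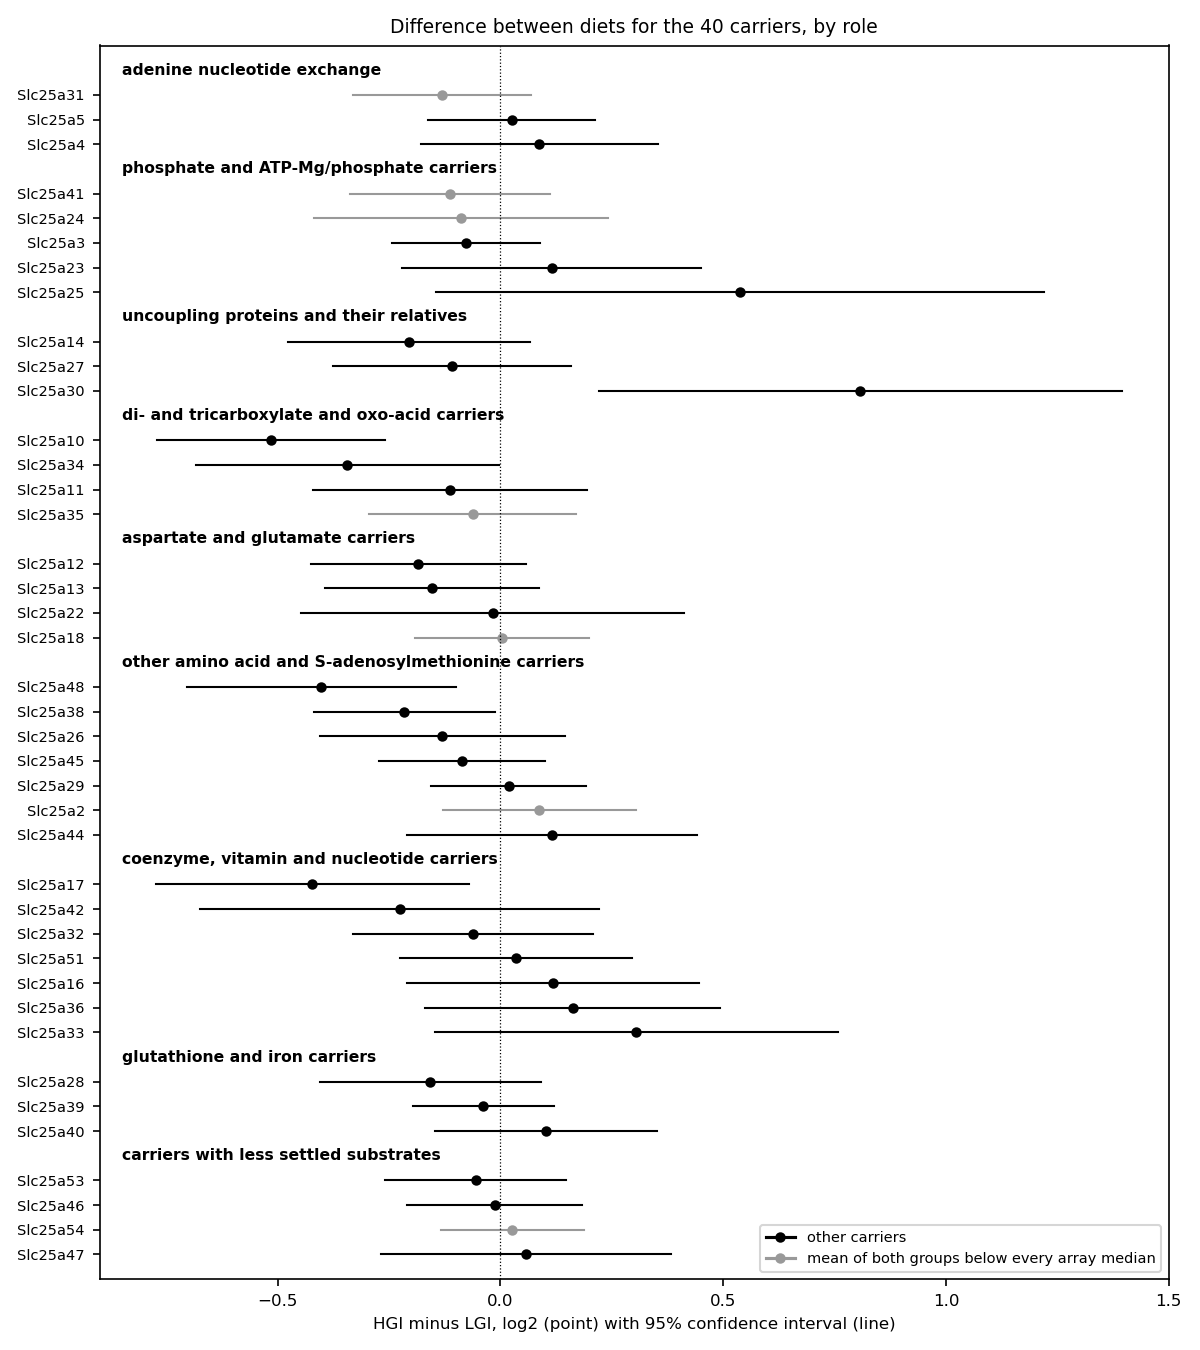
Difference between the diets, HGI minus LGI on the log2 scale, for the 40 carriers grouped by role, with lines for the 95% confidence interval and grey for the 7 carriers below every array median. Slc25a10 (-0.51), Slc25a25 (0.54) and Slc25a30 (0.81) are the 3 points more than 0.5 from 0, and the interval of Slc25a25 spans 0.

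Arrays correlated with each other at 0.986 to 0.996. HGI 1 had the narrowest spread of values (SD 2.16 log2) and the lowest value of the 10 arrays for 17 of the 40 carriers (42.5%), as it had for 28.5% of all genes and 54.2% of genes whose mean log2 reached 6. LGI 4 correlated least with the other arrays of its diet (mean 0.988). It also stood apart in the summed linear signal of 7 neutrophil markers, 1235 on LGI 4 and 132 to 287 on the other 9 arrays. Most of the LGI 4 sum came from S100a8 at 8.92 and S100a9 at 9.31 log2, not from the list as a whole. The part of this in the carrier values was not tested. With single arrays left out, the sign turned at 14 of the 40 carriers, none of them among the 6 of unadjusted p under 0.05. Those 6 were picked by their p on these same arrays, so their unturned sign is no separate support. Slc25a18, Slc25a22, Slc25a32 and Slc25a46 turned without HGI 1, and Slc25a5, Slc25a18, Slc25a29 and Slc25a44 without LGI 4. None of the 8 measured hepatocyte markers lay below every array median, with Alb at 14.69 log2 in both diets.

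**Figure D2:**
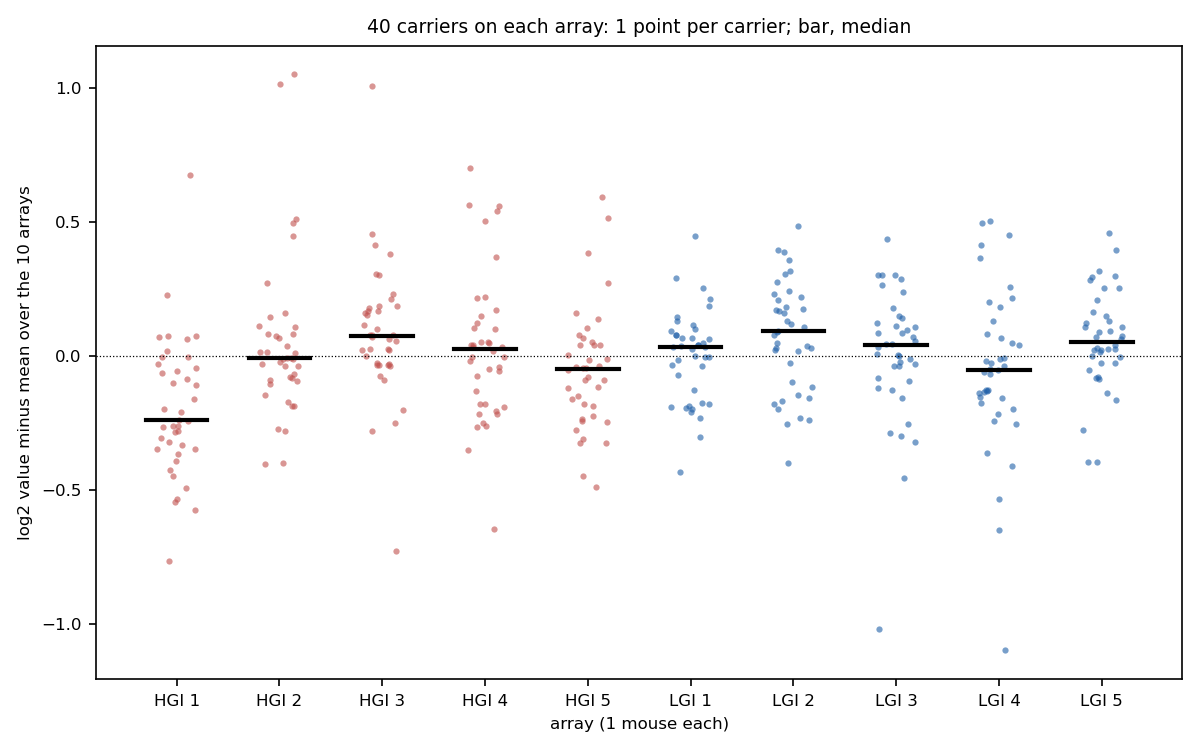
Values of the 40 carriers on each array as the log2 value minus the carrier's mean over the 10 arrays, 1 point per carrier, with a bar at the median. The median of HGI 1 is -0.24, and those of the other 9 arrays lie between -0.05 and 0.09.

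Among the carriers of dicarboxylates and oxo-acids, Slc25a10 stood apart by its values. It is the dicarboxylate carrier, which exchanges malate or succinate for phosphate and so supplies carbon for gluconeogenesis and lipid synthesis. Its log2 levels were 9.40, 9.66, 9.96, 9.89 and 9.49 in HGI 1 to 5 and 10.05, 10.33, 10.24, 10.02 and 10.33 in LGI 1 to 5. Every HGI mouse lay below every LGI mouse. HGI 1 and HGI 5 were lowest. The HGI mean was 9.68 ± 0.24 (SD, n = 5) against 10.19 ± 0.15 (SD, n = 5) under LGI, a difference of -0.51 ± 0.12 (SE), or 1.43-fold lower in HGI, with an interval from -0.77 to -0.26. It did not pass in limma (unadjusted p = 0.000767, adjusted p = 0.211).

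Slc25a10 was the one carrier of 40 (2.5%) whose groups did not overlap, against 2.17% of genes at 1 probe set each (1.67% lower), a share near the background. Its second, dimmer probe set stood at -0.42 ± 0.15 (SE, adjusted p = 0.520) and the groups overlapped there. At that probe set HGI 4 reached 7.99 and LGI 4 came down to 7.86. With each array left out in turn the difference at the brighter probe set was -0.58 to -0.45 and the adjusted p 0.101 to 0.486. It was -0.49 without HGI 1 and LGI 4 together (limma adjusted p = 0.196).

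The other 3 carriers of this group also had values below 0. Slc25a34, a relative whose substrates are less settled, stood at -0.34 ± 0.16 (SE, adjusted p = 0.658). Its HGI values ran from 5.70 to 6.27 log2 and its LGI values from 5.85 to 6.61, so the groups overlapped. Without HGI 1 and LGI 4 it stood at -0.21. Slc25a11, the oxoglutarate carrier of the malate-aspartate shuttle, stood at -0.11 (adjusted p = 0.916), with levels of 8.45 and 8.57 in HGI 1 and HGI 5 and 8.88 to 9.03 in the other 3 HGI mice. In LGI it was 8.48 in LGI 4 and 8.87 to 9.13 in the others. The difference was -0.03 without HGI 1 and -0.22 without LGI 4. Slc25a35 stood at -0.06, below every array median.

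The widest difference among the selected carriers was at Slc25a30, a relative of the uncoupling proteins first described in kidney. Its log2 levels were 7.63, 9.03, 8.98, 8.54 and 7.73 in HGI 1 to 5. In LGI 1 to 5 they were 7.78, 7.58, 6.96, 7.84 and 7.70. HGI 2, 3 and 4 lay above all LGI mice, while HGI 1 and HGI 5 lay within the LGI range. Means were 8.38 ± 0.67 (SD, n = 5) for HGI mice against 7.57 ± 0.36 (SD, n = 5) for LGI mice, a difference of 0.81 ± 0.27 (SE), or 1.75-fold, with an interval from 0.22 to 1.39. It did not pass in limma (unadjusted p = 0.0107, adjusted p = 0.491).

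Slc25a30 is read by 5 probe sets, and 3 of the further ones stood at 0.67, 0.62 and 0.59 (limma adjusted p from 0.513 to 0.676). HGI 2, 3 and 4 had the highest HGI values at each of these 3 as well. The remaining probe set, with means of 2.59 and 2.78 log2, lay below every array median and stood at -0.19. With each array left out in turn the difference was 0.65 to 1.00, and without HGI 1 and LGI 4 together it was 1.06 (limma adjusted p = 0.232). The mean of all 5 probe sets gave 0.50. Within the same group Slc25a14 stood at -0.20 (adjusted p = 0.767), with 5.58 to 6.14 log2 in HGI and 5.80 to 6.29 in LGI, and Slc25a27 at -0.11. Both are uncoupling-protein relatives best known from the brain.

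**Figure D3:**
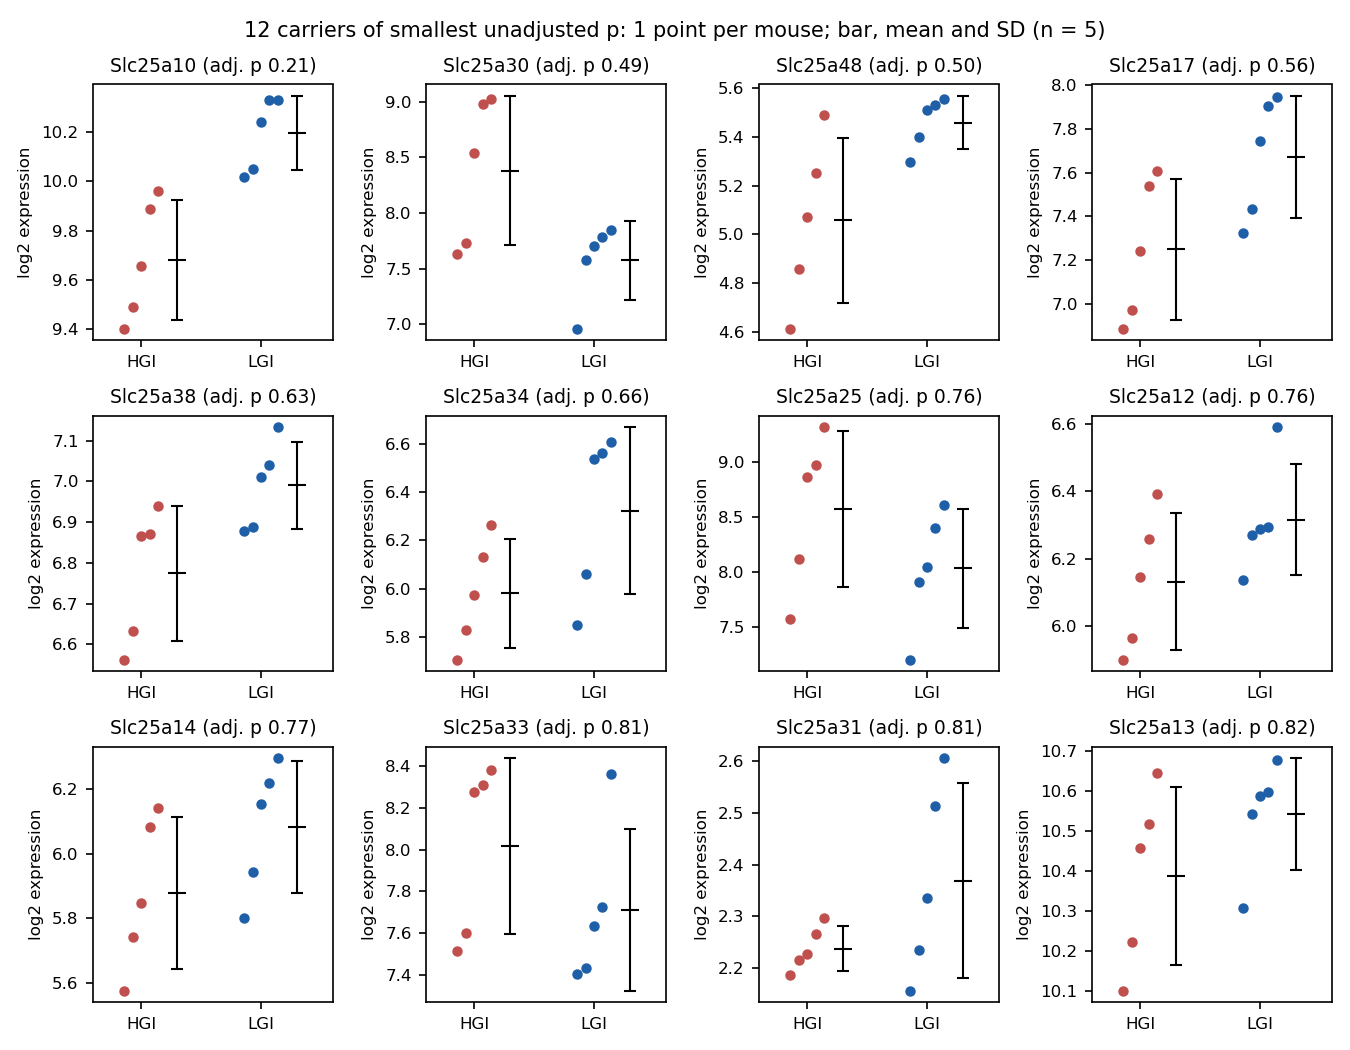
Log2 expression of the 12 carriers of smallest unadjusted p, 1 point per mouse in HGI (red) and LGI (blue), with bars for the mean and SD of 5 mice; the vertical axes differ and do not start at 0. The groups are apart at Slc25a10 and overlap at the other 11, and at Slc25a30 the HGI mice fall into 3 above and 2 within the LGI range.

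Liver is a mixture of cells, and in RNA of whole tissue fewer cells of a type and less RNA per cell cannot be told apart. Markers of Kupffer, endothelial and erythroid cells had values above 0, and those of other cells lay on both sides. All 12 markers of Kupffer cells were above 0, with a median of 0.27 (0.10 without HGI 5) and a summed linear signal of 3053 to 5106 in HGI and 2486 to 4267 in LGI. None of the 12 lay below every array median. The 10 liver endothelial markers were all above 0 with a median of 0.21 (0.13 without HGI 2) and a summed signal of 1272 to 1873 against 1086 to 1636, with 1 marker below every array median. The 6 erythroid markers were all above 0 with a median of 0.09 and a summed signal of 577 to 1368 against 288 to 734. Among these, Epb42, Ermap and Hba-a1 lay below every array median, while Slc4a1, the anion exchanger of red cells, stood at 2.25 with groups that did not overlap (adjusted p = 0.0625) and Alas2, the red-cell enzyme that starts haem synthesis, at 1.34 (adjusted p = 0.262). The hepatocyte list had 4 markers above and 4 below 0, a median of -0.05 and a summed signal of 100924 to 105136 against 92448 to 107888. None of these markers passed at the probe set used, and their part in the carrier differences was not tested. Medians of the other marker lists lay between -0.10 (testis) and 0.10 (T and B lymphocytes).

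Carriers of adenine nucleotides and phosphate, which serve ATP export in every cell, did not pass, and the brightest of them were closely bounded. Slc25a5, the main ADP/ATP exchanger of liver, had levels of 12.26 to 12.57 log2 in HGI and 12.20 to 12.47 in LGI. It stood at 0.02 ± 0.09 (SE, adjusted p = 0.975), with an interval from -0.16 to 0.21, and its sign turned without HGI 3 or LGI 4. Its 8 probe sets stood between -0.05 and 0.19. Several of them, the one used included, carry the array maker's mark for probes that may also bind related transcripts. Slc25a4, the exchanger of heart and muscle, stood at 0.09 (adjusted p = 0.926), and Slc25a31, its counterpart of the testis, at -0.13 (adjusted p = 0.813) below every array median.

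Slc25a3, the phosphate carrier, read 11.49 to 11.62 log2 in HGI and 11.52 to 11.76 in LGI. It stood at -0.08 ± 0.08 (SE, adjusted p = 0.885), with an interval from -0.24 to 0.09. Its other probe set, below every array median, stood at 0.19, and the mean of both turned the sign to 0.06. Of the ATP-Mg/phosphate carriers, most of them regulated by calcium, which set the total pool of adenine nucleotides in mitochondria, Slc25a25 varied most between mice. Its log2 levels were 8.97, 9.32, 7.58, 8.86 and 8.12 in HGI 1 to 5 and 8.40, 8.60, 8.05, 7.20 and 7.90 in LGI 1 to 5. HGI 1, 2 and 4 were above all LGI mice, HGI 3 was below 4 of them, and LGI 4 was lowest of all. The difference was 0.54 ± 0.32 (SE, adjusted p = 0.758), with an interval from -0.15 to 1.22. It was 0.33 without LGI 4, 0.35 without HGI 2 and 0.23 without HGI 1 and LGI 4 together. Its other probe sets stood at 0.33 and 0.17. Slc25a23 stood at 0.11 (0.25 without HGI 1) and Slc25a24 and Slc25a41 at -0.09 and -0.11, the last pair below every array median.

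The aspartate and glutamate carriers, which pass reducing equivalents and urea-cycle nitrogen across the membrane, lay at or below 0. Slc25a13 (citrin), the liver's aspartate-glutamate exchanger, read 10.10, 10.46, 10.64, 10.52 and 10.22 log2 in HGI 1 to 5 and 10.68, 10.54, 10.59, 10.31 and 10.60 in LGI 1 to 5. The groups overlapped, with HGI 1 and HGI 5 lowest. The difference was -0.15 ± 0.11 (SE, adjusted p = 0.819), with an interval from -0.39 to 0.09, and it was -0.08 without HGI 1. Slc25a12 (aralar), the exchanger of brain and muscle, stood at -0.18 (adjusted p = 0.762). It was -0.12 without LGI 4, and its further probe sets stood at -0.24 and 0.09. Slc25a22, a glutamate carrier, stood at -0.02 ± 0.20 (SE, adjusted p = 0.993), with 8.75 in HGI 1 and 8.64 in LGI 4 against 9.13 to 9.79 in the other 8 mice. It was 0.12 without HGI 1, -0.18 without LGI 4 and 0.022 after a second quantile normalization. Slc25a18, the other glutamate carrier, lay below every array median.

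Of 7 carriers of other amino acids and of S-adenosylmethionine, 4 had values below 0 and 3 above. Slc25a48, linked to mitochondrial choline import, read 5.25, 4.86, 5.49, 4.61 and 5.07 log2 in HGI 1 to 5 and 5.30 to 5.56 in LGI. Of the HGI mice 4 lay below all LGI mice, and HGI 3 lay among them. It stood at -0.40 ± 0.14 (SE, adjusted p = 0.504), and at -0.11 and -0.05 at its further probe sets, both below every array median. Slc25a38, which brings glycine into mitochondria for haem synthesis, read 6.56 to 6.94 log2 in HGI and 6.88 to 7.13 in LGI. Its groups overlapped by a single HGI mouse, HGI 3, and it stood at -0.22 ± 0.09 (SE, adjusted p = 0.632). Slc25a26, the S-adenosylmethionine carrier, stood at -0.13 (-0.034 without LGI 4), with -0.35 at its dimmer probe set (adjusted p = 0.617). The carrier of branched-chain amino acids, Slc25a44, stood at 0.12, and at -0.0024 without LGI 4. Its second probe set stood at 0.22, and at 0.060 without LGI 4. Slc25a29, the carrier of basic amino acids, stood at 0.02 (-0.040 without LGI 4) and Slc25a45 at -0.09 (-0.048 without HGI 1 and -0.043 without LGI 4).

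Carriers of coenzymes, vitamins and nucleotides lay on both sides of 0. Slc25a17, the peroxisomal carrier of coenzyme A and related cofactors, read 6.88, 7.61, 7.54, 7.24 and 6.97 log2 in HGI 1 to 5 and 7.91, 7.95, 7.74, 7.32 and 7.43 in LGI 1 to 5. HGI 1, 4 and 5 lay below all LGI mice, and HGI 2 and HGI 3 above LGI 4 and LGI 5. It stood at -0.42 ± 0.16 (SE, adjusted p = 0.561). Its other probe set, at 4.11 log2, stood at 0.13 (adjusted p = 0.748), and the mean of both gave -0.15. Slc25a42, the mitochondrial coenzyme A carrier, stood at -0.23 ± 0.21 (SE, adjusted p = 0.872). HGI 1 was lowest at 6.79, against 7.24 or more in the other 9 mice. Without HGI 1 it stood at -0.06, and without HGI 1 and LGI 4 together at 0.03.

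Slc25a33, a carrier of pyrimidine nucleotides that insulin and IGF-1 induce in cultured cells, stood at 0.31 ± 0.21 (SE, adjusted p = 0.805). Its values were 7.52, 8.31, 8.28, 7.60 and 8.38 log2 in HGI 1 to 5. LGI 4 read 8.36 and the other 4 LGI mice 7.41 to 7.72. HGI 2, 3 and 5 thus lay with LGI 4, above the rest. Without LGI 4 the difference was 0.47 and without HGI 1 and LGI 4 together 0.59 (limma adjusted p = 0.260). Slc25a51, the NAD carrier, stood at 0.03 ± 0.12 (SE, adjusted p = 0.975) at its brightest probe set, with 9.03 to 9.62 log2 in HGI and 9.06 to 9.56 in LGI. Its second probe set stood at -0.36 ± 0.11 (SE, unadjusted p = 0.00762, adjusted p = 0.453) and the third at 0.24, so the probe sets of this gene went apart. Of the others, Slc25a36 stood at 0.16 (0.079 without LGI 4), Slc25a16 at 0.12 (-0.043 without HGI 4) and Slc25a32, the folate carrier, at -0.06 (0.0079 without HGI 1).

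Glutathione carriers differed little. Slc25a39, which brings glutathione into mitochondria, read 12.91 to 13.12 log2 in HGI and 13.00 to 13.15 in LGI. It stood at -0.04 ± 0.07 (SE, adjusted p = 0.952), with an interval from -0.20 to 0.12, the SE being the smallest of the 40. Its further probe sets stood between -0.19 and 0.09. The probe set used carries the same array maker's mark as that of Slc25a5, for probes that may also bind related transcripts. Of those without the mark the brightest, with a mean of 10.30 log2, stood at -0.19 ± 0.13 (SE). Slc25a40, its close relative, stood at 0.10 (0.065 without LGI 4), and Slc25a28 (mitoferrin-2), an iron carrier, at -0.16 (adjusted p = 0.821), or -0.07 without HGI 1. Slc25a47, a carrier found chiefly in liver, read 10.29, 11.13, 10.69, 10.74 and 10.38 log2 in HGI 1 to 5 and 10.32 to 10.80 in LGI. It stood at 0.06 ± 0.15 (SE, adjusted p = 0.967), and its sign turned without HGI 2 or LGI 3. Slc25a46 stood at -0.01 (0.056 without HGI 1), and Slc25a53 and Slc25a54 at -0.06 and 0.03.

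Probe sets of the same carrier did not always go the same way. Of the 40 carriers 21 had several probe sets, and at 10 of these all had the same sign. The 47 further probe sets had a median difference of 0.01, with 23 below and 24 above 0, and 5 had an unadjusted p under 0.05 (10.6%, against 7.54% of all probe sets). These 5 were of Slc25a51, Slc25a10, Slc25a26 and Slc25a30, which had 2. At Slc25a10, Slc25a25, Slc25a26, Slc25a48 and Slc25a53 every probe set lay on one side of 0, also with any single array left out. The further probe sets of Slc25a48 and Slc25a53 lay below every array median. The probe set used for Slc25a53 had means of 3.85 log2 in HGI and 3.91 in LGI, where the lowest array median was 3.91.

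**Figure D4:**
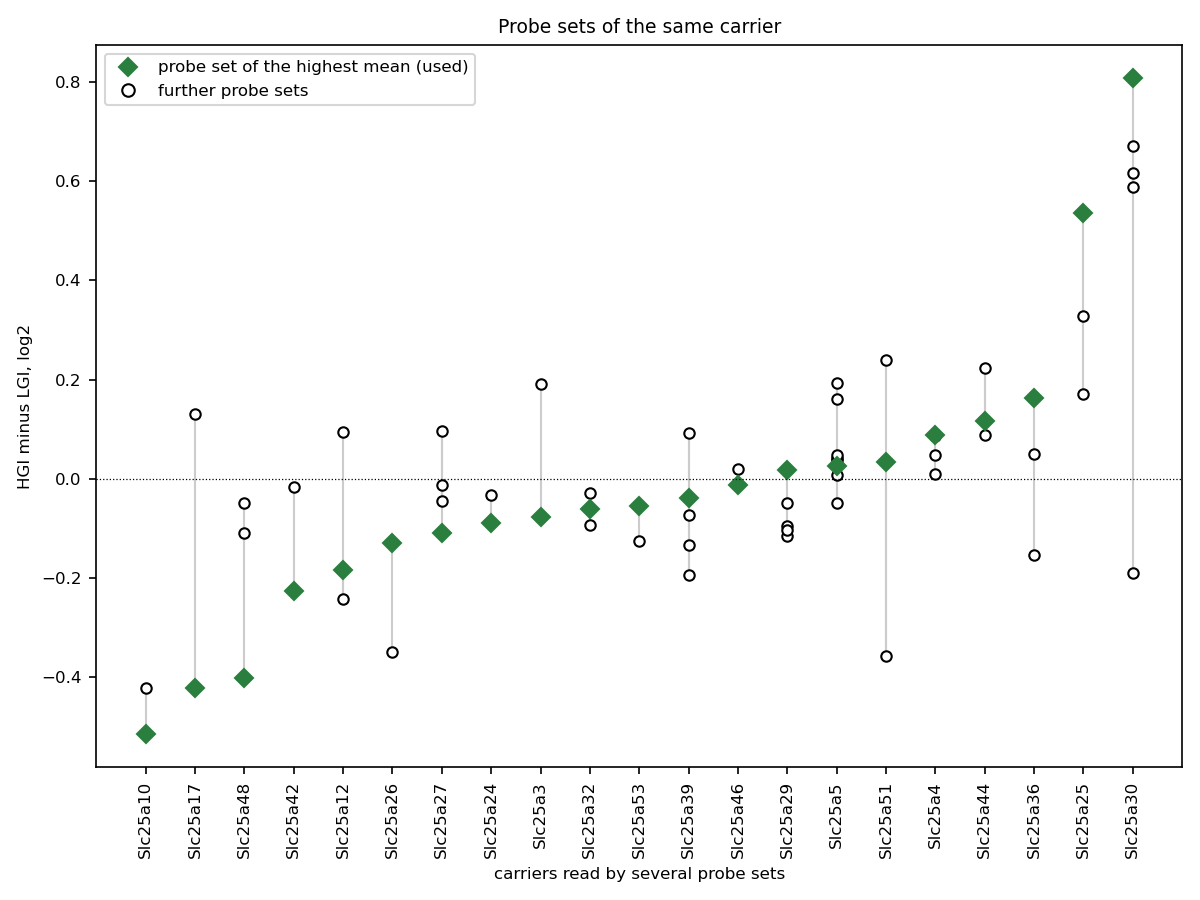
Difference between the diets, HGI minus LGI on the log2 scale, at every probe set of the 21 carriers that have several, with a diamond for the one used and circles for the others. The probe sets of Slc25a10 lie together at -0.51 and -0.42, and those of Slc25a51 spread from -0.36 to 0.24.

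Among the 8 measured family members outside the selection, 0 passed. Slc25a37 (mitoferrin-1), the iron carrier of developing red cells, stood at 1.06 (limma unadjusted p = 0.00054, adjusted p = 0.175). Its groups did not overlap, as was so at 2.17% of genes at 1 probe set each (0.5% higher). Slc25a20, the carnitine carrier, stood at -0.33, Slc25a15, the ornithine carrier, at -0.18, and Slc25a1, the citrate carrier, at 0.12. Ucp1 lay below every array median. The erythroid markers given above, Slc4a1 (2.25) and Alas2 (1.34) among them, lay on the same side of 0 as Slc25a37, and their part in its value was not tested.

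Genes that work beside the carriers did not pass either, with 0 of 63 past the threshold in 6 lists. At an unadjusted p under 0.05 in limma 2 were higher (3.17%) and 10 lower (15.9%), against the 3.07% and 6.23% of genes given above. That background holds many dim genes, while most of the 63 had a mean log2 of at least 6. Tested alone in limma, 11% of probe sets that bright had an unadjusted p under 0.05 in either direction. The enzymes of the malate-aspartate and glycerol phosphate shuttles, partners of Slc25a11, Slc25a12 and Slc25a13, had 3 of 6 values below 0 and a median of -0.04, which was 0.0037 without HGI 1 and -0.08 without HGI 4. Among them Gpd2, the mitochondrial glycerol phosphate dehydrogenase, stood at 0.45 ± 0.13 (SE, adjusted p = 0.412), Mdh1, the cytosolic malate dehydrogenase, at -0.24 (adjusted p = 0.578) and its cytosolic glycerol phosphate counterpart Gpd1 at -0.19 (adjusted p = 0.884). The machinery that imports carrier proteins into the inner membrane had all 13 measured members below 0, with a median of -0.13, against -0.03 over all genes. Genes whose mean log2 reached 6 had a median of -0.04, with 62.1% below 0, and a median of 0.01 without HGI 1. The median of the import list was -0.06 without HGI 1 and -0.03 without HGI 1 and LGI 4 together. Its members of smallest p were Timm22, the pore of the carrier insertion complex (-0.26, adjusted p = 0.462), Tomm40, the outer membrane pore (-0.15, adjusted p = 0.706), and Timm10, a chaperone between the membranes (-0.20, adjusted p = 0.776).

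Mitochondrial transport proteins of other families had 12 of 14 values below 0 and a median of -0.07, which was -0.02 after a second quantile normalization, -0.04 without HGI 1 and -0.11 without LGI 4. Sideroflexins were the members of smallest p, Sfxn5 at -0.48 ± 0.13 (SE, adjusted p = 0.307) and Sfxn1, a serine transporter, at -0.39 ± 0.11 (SE, adjusted p = 0.388), followed by Letm1, an ion exchanger, at -0.33 (adjusted p = 0.576). The 12 genes of glutathione synthesis and iron-sulphur clusters had a median of -0.17 with 10 below 0, and -0.06 without HGI 1. Gclm, the modifier subunit of the first enzyme of glutathione synthesis, stood at -0.30 (adjusted p = 0.459), Nfs1, the cysteine desulphurase of cluster assembly, at -0.30 (adjusted p = 0.464) and Bola3 at -0.21 (adjusted p = 0.628). Haem synthesis, whose first enzyme uses the glycine that Slc25a38 carries, had 5 of 7 genes below 0 and a median of -0.03. That median was -0.10 without LGI 4, -0.0073 without LGI 2 and 0.026 after a second quantile normalization. Cpox stood at -0.23 (adjusted p = 0.721), Alas1, the first enzyme, at -0.66 ± 0.44 (SE, adjusted p = 0.794) and Alad at -0.16 (adjusted p = 0.877). Of 11 regulators of mitochondrial genes 7 lay below 0, with a median of -0.01 that was -0.15 without LGI 4. The 3 of smallest p were Ppard (0.34, adjusted p = 0.539), Tfb2m (-0.24, adjusted p = 0.655) and Esrra (-0.21, adjusted p = 0.701).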

How the data were processed

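Liver RNA was measured on Affymetrix arrays, 1 per mouse, with 5 HGI and 5 LGI mice. The authors' deposited values are log2 expression per probe set; the submitters' processing notes name RMA and R 2.6.1. RMA fits all arrays to a shared distribution, so a shift common to most genes may be removed. The deposited arrays still differed in spread, with an SD of 2.16 log2 on HGI 1 and 2.26 to 2.32 on the others. A second quantile normalization moved the median difference of genes whose mean log2 reached 6 from -0.044 to -0.012. Of 45101 probe sets, 64 controls were left out and 45037 tested without a filter. Names came from the platform annotation: 34945 probe sets had 1 symbol, 932 had several and 9160 had no entry. Gene IDs of 34741 were found in a RefSeq table (GRCm38.p6), which changed 0 symbols. The diets were compared in limma 3.58.1 (lmFit and eBayes without covariates, under R 4.3.3), tested on simulated data. The labels do not say whether the mice came from separate litters or cages, so p-values measure the spread between these 10 samples.

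The carriers, the 9 role lists, the 7 partner lists and the 13 marker lists were chosen with earlier results of these data known. Named with values were carriers past the threshold at any probe set, the 12 of smallest p, the smallest p of each role, a fixed set with known roles in liver, and carriers whose probe sets disagreed in sign with an unadjusted p under 0.05 at either; of partner lists, up to 3 genes of smallest p. Other carriers are given by value alone. The alternatives were filters on dim probe sets, quantile normalization again, median centring, array weights, robust fitting with a variance trend, testing 1 probe set per gene, the mean of a gene's probe sets, a replicate block, and arrays left out singly and HGI 1 with LGI 4. The number of arrays limits the precision.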

Additional observations from a re-analysis of the deposited data

Results flagged for a closer look

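Within each diet the highest or lowest mouse stood far from the other 4 in 6 of the 80 carrier and diet combinations, by Dixon's gap ratio at its 95% critical value of 0.71; chance gives about 1 in 20. LGI 4 was the mouse in 2 of the 6: it read 12.20 log2 at Slc25a5, where the other LGI mice read 12.44 to 12.47, and 7.28 at Slc25a29, with the next at 7.56. HGI 4 read 8.35 at Slc25a16, a carrier linked to coenzyme A, with the other HGI mice at 7.48 to 7.61. LGI 1 read 7.95 at Slc25a23, an ATP-Mg/phosphate carrier, with the others at 8.14 to 8.20. HGI 5 read 4.09 at Slc25a24, with the others at 3.23 to 3.41, near the median signal of the arrays. HGI 1 read 8.07 at Slc25a45, with the others at 8.24 to 8.29.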

How the results depend on the processing

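No carrier passed under any of the 20 alternatives, the smallest adjusted p (limma) being 0.101 for Slc25a10 without HGI 3, and 3 to 8 had an unadjusted p under 0.05, where 6.27% to 11% of all features did. The carriers' median difference stayed between -0.07 and -0.03. The number below 0 was 22 to 28 with single arrays left out, and 14 of the 24 carriers that have a mean log2 of at least 6, where fewer were tested. Over all probe sets the count past the threshold was 29; it was 63 with quantile normalization again (27 lower), 17 with median centring (4 lower), 64 with array weights, 58 without HGI 1 and LGI 4 together (30 and 23 lower), and 5 to 49 with single arrays left out. The cause was not tested. Signs turned for Slc25a22 with quantile normalization again (0.022), Slc25a42 without HGI 1 and LGI 4 together (0.034), and Slc25a3 (0.057) and Slc25a51 (-0.028) with the mean of all probe sets. With single arrays left out, differences were -0.18 to 0.12 for Slc25a22, -0.063 to 0.15 for Slc25a47, -0.027 to 0.068 for Slc25a5 and -0.056 to 0.12 for Slc25a51. The other named carriers kept their sign under the alternatives that tested them; filters on dim probe sets left out Slc25a31, Slc25a53, Slc25a14 and Slc25a48. The labels do not say whether the replicate number pairs the mice. After each group's mean was taken off, correlations of same-numbered arrays were -0.05 to 0.07, which does not settle it. With the number as a replicate block 33 probe sets and 0 carriers passed. With 5 arrays per diet, and 7 carriers below every array median, small changes could be missed.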

Other observations

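HGI 1 and HGI 5 were the lowest HGI mice together at 15 of the 40 carriers (37.5%), a pair noticed after the values were seen, against 12.8% of all genes and 20.1% of genes whose mean log2 reached 6. Among these 15 were Slc25a10, Slc25a11, Slc25a13, Slc25a17, Slc25a30 and Slc25a47. In LGI the commonest lowest pair was LGI 1 and LGI 3, at 9 carriers (22.5%), against 11.1% of all genes and 16.4% of those whose mean log2 reached 6. The carriers share arrays and mice and the pair was chosen for its count, so these shares are a description and were not tested.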
